A study of Mus musculus with 4 samples.

Results

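The transcripts described here were those of 10 genes of the canonical Wnt and β-catenin pathway, chosen by symbol from the 24421 symbols of the count matrix: Lrp6, Dvl1, Apc, Axin1, Axin2, Gsk3a, Gsk3b, Ctnnb1, Lef1 and Tcf7l2. All 10 symbols were found, and 9 of the 10 passed the filter on low counts and were tested. They were measured in 4 libraries of B16F10, a pigmented mouse melanoma line of the C57BL/6 strain. Both groups had been transduced with a lentiviral vector and kept under puromycin. The 2 shControl libraries came from cells with a control vector that the study lists as empty, and the 2 shLmna libraries from cells with a short hairpin RNA that targets Lmna in its exon 8. Lmna is the gene of lamin A/C, the A-type lamins under the nuclear membrane. Because the control vector held no hairpin, the effect of any hairpin and that of the loss of Lmna cannot be told apart here. The shLmna libraries share 1 hairpin sequence, and a second hairpin or a rescue was not analysed here. The question put to the data was which transcripts change when lamin A/C is knocked down.

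In the canonical pathway, a secreted Wnt ligand binds a Frizzled receptor and its co-receptor LRP5 or LRP6, and Dishevelled proteins relay the signal. Without ligand, a destruction complex built on the scaffolds AXIN1, AXIN2 and APC lets the kinases CK1α and GSK3 phosphorylate β-catenin, which is then ubiquitinated and degraded. With ligand, β-catenin accumulates, enters the nucleus and binds TCF/LEF factors at target genes such as Axin2. Melanocytes arise from the neural crest under Wnt signals, and β-catenin also joins cadherins to the actin cytoskeleton at cell junctions. Because the pathway acts largely on β-catenin protein, transcript levels of its components measure their supply and not the activity of the pathway. Transcripts of target genes such as Axin2 are read instead as feedback on the pathway.

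The stretch of β-catenin on which the destruction complex acts is shown because it ties together Ctnnb1, Gsk3a, Gsk3b and the CK1α gene Csnk1a1, whose values follow. It spans codons 32 to 45 of the 2346 coding bases of Ctnnb1 (GRCm38 transcript, chromosome 9, plus strand, stop codon included), and capitals mark the codons of serine 33, serine 37, threonine 41 and serine 45. CK1α phosphorylates serine 45 first, and GSK3 then phosphorylates the other marked residues.
Ctnnb1 codons 32 to 45: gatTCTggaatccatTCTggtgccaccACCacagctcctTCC
The 3′ end that was counted lies outside this stretch.

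Promoter windows from RefSeq (GRCm38.p6, 250 bases before to 50 bases after a start) were found for 7 of the 10 genes, in 12 windows. The windows of Ctnnb1, Gsk3a and Axin2 are shown for 3 reasons: Ctnnb1 was the only one of the 10 that passed the test, Gsk3a held the TCF/LEF letters at its main start, and Axin2 is the textbook target gene of the pathway. The TCF/LEF letters searched were CTTTGAA, the variant CTTTGAT, the variant CTTTGTA and the variant CTTTGTT, on both strands. These 4 motifs cannot match at the same position, and capitals mark a match.
Ctnnb1 promoter, chr9:120933150-120933449, plus strand: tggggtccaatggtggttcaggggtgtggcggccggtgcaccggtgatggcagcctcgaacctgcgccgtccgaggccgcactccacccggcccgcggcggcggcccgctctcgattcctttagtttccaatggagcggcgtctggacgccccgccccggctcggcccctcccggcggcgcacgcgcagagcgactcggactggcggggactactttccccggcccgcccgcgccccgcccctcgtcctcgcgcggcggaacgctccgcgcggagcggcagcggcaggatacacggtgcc
Gsk3a promoter, chr7:25237802-25238101, minus strand: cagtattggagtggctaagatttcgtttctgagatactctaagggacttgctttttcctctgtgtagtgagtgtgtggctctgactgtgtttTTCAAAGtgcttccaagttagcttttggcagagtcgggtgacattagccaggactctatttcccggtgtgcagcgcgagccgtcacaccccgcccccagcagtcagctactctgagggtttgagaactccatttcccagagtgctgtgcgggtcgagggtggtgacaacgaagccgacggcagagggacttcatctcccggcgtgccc
Axin2 promoter, chr11:108920099-108920398, plus strand: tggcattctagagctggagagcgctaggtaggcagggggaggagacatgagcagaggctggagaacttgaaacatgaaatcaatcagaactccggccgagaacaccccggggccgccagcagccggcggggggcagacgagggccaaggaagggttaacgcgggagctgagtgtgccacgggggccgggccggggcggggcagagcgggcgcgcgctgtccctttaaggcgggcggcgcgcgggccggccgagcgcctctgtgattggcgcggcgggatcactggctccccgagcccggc
The Gsk3a window held 1 match, CTTTGAA on the opposite strand at position -158 from the start, and the Ctnnb1 and Axin2 windows held none. Among the 12 windows 3 held a match, the other two lying at alternative starts of Lef1 and Tcf7l2. For comparison, 5544 of 32851 windows in the table (16.9%) held at least 1 of the 4 motifs. A match is only a run of letters, and its absence from 300 bases says nothing of binding elsewhere.

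The libraries held 2494880 to 3808843 counts, and 9150 genes were tested. Lmna, the targeted gene, had 2826 and 2684 counts in shControl cells against 331 and 480 in shLmna cells, which is -2.61 on the log2 scale (SE 0.142) and in the direction of the labels. Across all tested genes, edgeR's quasi-likelihood test with Benjamini-Hochberg adjustment passed 1392 at an adjusted p under 0.05, which was 15.2%, with 9.74% lower and 5.48% higher in shLmna. On the log2 scale the median over these genes was -0.00107. Melanocyte lineage markers summed to 20117 and 20891 CPM (counts scaled to a common library size with TMM factors) in shControl and to 21156 and 24602 in shLmna, but the 7 markers did not move alike. Sox10 fell by 0.89 on the log2 scale (edgeR adjusted p = 0.0016), while Mlana and Pmel rose by 0.51 and 0.41 (edgeR adjusted p = 0.0051 and 0.026). Mitf (log2 fold change -0.37, edgeR adjusted p = 0.080), Tyrp1 (-0.14, 0.72) and Dct (-0.02, 0.90) did not pass, and Tyr had only 1 to 7 counts. The part of these markers in the values of the pathway genes was not tested. Markers of other cells were far below these sums. The summed CPM ran from 0 to 1.07 for endothelial, from 0 to 5.58 for epithelial, and from 2.37 to 7.23 for fibroblast markers. It ran from 11.5 to 18.0 for immune markers, mostly Cd68, with Ptprc at 0. Cd68 alone, at 10.7 to 16.4 CPM, was at the level of low members such as Tcf7l2 (7.74 to 15.5 CPM). The epithelial marker Krt8 had 16 and 9 counts in shControl cells against 0 and 1 in shLmna cells.

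Ctnnb1 fell in lamin A/C knockdown cells and was the only one of the 10 transcripts to pass the test, 1 of 9 tested (11.1%) beside 15.2% of all genes. Gsk3a and Gsk3b had lower values in both shLmna libraries, and Tcf7l2 and Lrp6 had higher values in both, but none of these 4 passed. Apc, Axin1, Axin2 and Dvl1 had log2 fold changes between -0.19 and 0.05 that did not pass, and Lef1 was too low to test. The median log2 fold change of the 9 was -0.15. In bulk libraries such as these, fewer cells with a transcript and less of it per cell cannot be told apart. The groups did not overlap in CPM for 6 of the 9 (66.7%), 4 lower and 2 higher in shLmna, and the same held for 60.1% of all tested genes, so neither count is a result about the members. No member met the study's stricter limits, which add a log2 fold change beyond 1 and a mean normalized count above 5 and which 7.64% of all tested genes met.

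**Figure D1:**
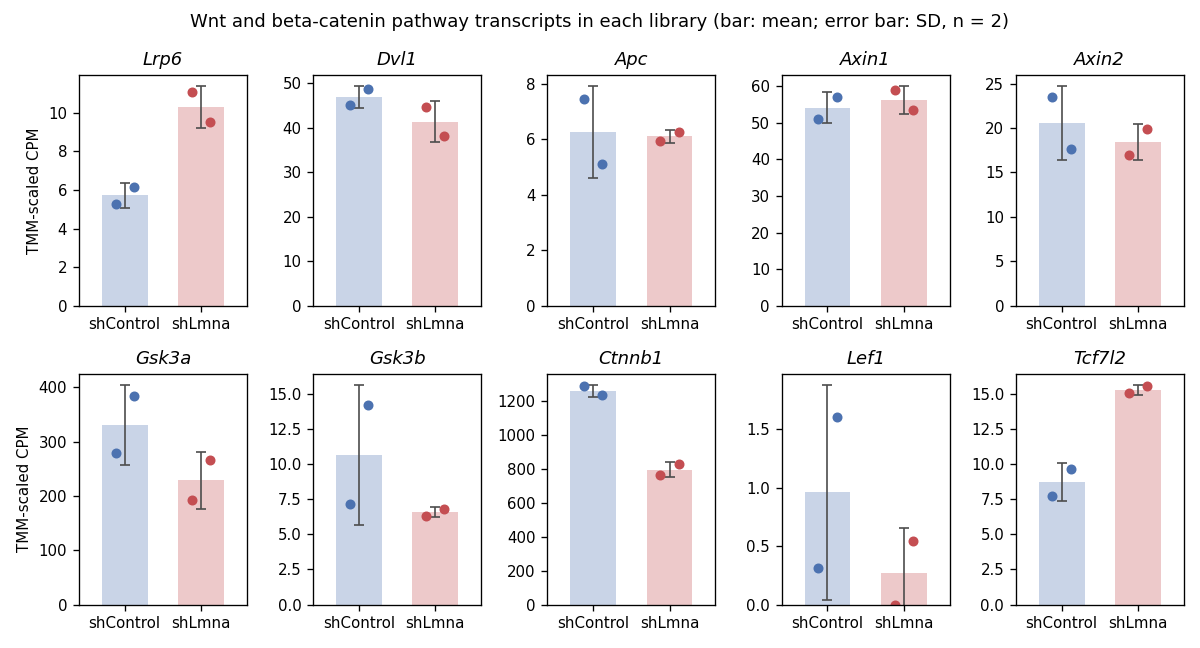
Levels of the 10 transcripts in each library, in CPM after TMM scaling, with 1 panel per gene and its own vertical axis from 0. Points are libraries, bars are means and error bars are SD (n = 2). The groups are apart for Ctnnb1, at 1284 and 1233 CPM against 763 and 827 CPM, and the points of Apc, Axin1 and Axin2 interleave.

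Ctnnb1 (GRCm38, chr9:120929216-120960507, plus strand) encodes β-catenin itself, the effector that the rest of the pathway keeps or destroys. It had 4147 and 4605 counts in shControl cells against 1929 and 3036 in shLmna cells, or 1284 and 1233 CPM against 763 and 827 CPM. Both shLmna libraries lay below both shControl libraries, and the gap was wide beside the spread within each group. The mean was 1259 ± 36.5 CPM in shControl and 795 ± 45.4 CPM in shLmna (SD, n = 2 each), and the fitted level fell by 36.8%. On the log2 scale Ctnnb1 fell by 0.66 (SE 0.111, 95% confidence interval -0.91 to -0.41, edgeR adjusted p = 0.0037). The call was lost without shLmna replicate 1, where the difference was -0.61 and the edgeR adjusted p 0.064. That fit had 1 shLmna library, the deeper of the pair, and passed 691 genes in all. In the authors' size-factor scaled table Ctnnb1 stood at 3878 and 3637 in shControl and at 2300 and 2471 in shLmna, the same order.

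The nuclear partners of β-catenin are the TCF/LEF factors, of which 2 were among the 10. Tcf7l2 (chr19:55741820-55933654, plus strand), which encodes TCF4, had 25 and 36 counts in shControl cells against 38 and 57 in shLmna cells. Scaled to CPM, these were 7.74 and 9.64 against 15.0 and 15.5, and the groups did not overlap. The log2 fold change of Tcf7l2 was 0.81 (SE 0.267, 95% confidence interval 0.21 to 1.40), and it did not pass (edgeR adjusted p = 0.073). It passed with a correction for GC content (log2 fold change 0.88, edgeR adjusted p = 0.0485) and on the batch-corrected values (log2 difference 0.17, limma adjusted p = 0.0073). On the batch-corrected values 3774 of 10417 genes passed, a larger share than in the reported fit. Lef1 (chr3:131110471-131224356, plus strand), a TCF/LEF factor that is also a target of the pathway, had 1 and 6 counts in shControl cells against 0 and 2 in shLmna cells. Both shLmna libraries were at or under 3 counts, the number that a count of 0 allows, which is 1.19 CPM in shLmna 1 and 0.817 CPM in shLmna 2. A difference in Lef1 was therefore not detectable at this depth, and no fold is given.

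Gsk3a and Gsk3b encode the GSK3 kinases that phosphorylate β-catenin at serine 33, serine 37 and threonine 41. Gsk3a (chr7:25228258-25237851, minus strand) had 900 and 1431 counts in shControl cells against 485 and 974 in shLmna cells. The groups were only just apart, at 279 and 383 CPM against 192 and 265 CPM, and each spread widely (SD 73.8 and 52.0). The fitted log2 fold change of Gsk3a was -0.53 (SE 0.189, 95% confidence interval -0.95 to -0.11, edgeR adjusted p = 0.091). As single libraries were left out, the value ranged from -0.28 without shControl replicate 2 to -0.79 without shLmna replicate 2, and Gsk3a passed in the latter (edgeR adjusted p = 0.0405) and without shControl replicate 1 (log2 fold change -0.74, edgeR adjusted p = 0.0013). Gsk3a also passed when no filter on low counts was set (log2 fold change -0.53, edgeR adjusted p = 0.0019), and on the authors' batch-corrected values (log2 difference -0.30, limma adjusted p = 0.0070). Gsk3b (chr16:38089001-38246084, plus strand) had 23 and 53 counts in shControl cells against 16 and 25 in shLmna cells, or 7.12 and 14.2 CPM against 6.33 and 6.81 CPM. The shControl libraries differed from each other more than shControl 1 differed from shLmna. Its log2 fold change was -0.70 (SE 0.379, 95% confidence interval -1.55 to 0.14, edgeR adjusted p = 0.25). It shrank to -0.11 without shControl replicate 2 and grew to -1.10 without shControl replicate 1, where it passed (edgeR adjusted p = 0.036).

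The scaffolds of the destruction complex showed no difference that passed the test. Axin1 (chr17:26138688-26195811, plus strand) had 165 and 213 counts in shControl cells against 149 and 196 in shLmna cells, with overlapping groups at 51.1 and 57.0 CPM against 58.9 and 53.4 CPM. The fitted difference was 0.05 on the log2 scale (95% confidence interval -0.29 to 0.39, edgeR adjusted p = 0.87). Axin2 (chr11:108920349-108950783, plus strand), both a scaffold and a target gene read as feedback on the pathway, had 76 and 66 counts in shControl cells against 43 and 73 in shLmna cells. The groups overlapped here too, at 23.5 and 17.7 CPM against 17.0 and 19.9 CPM. Its log2 fold change was -0.15 (95% confidence interval -0.69 to 0.40, edgeR adjusted p = 0.73). Apc (chr18:34220924-34322552, plus strand), the tumor suppressor that holds β-catenin in the complex, had 24 and 19 counts in shControl cells against 15 and 23 in shLmna cells. Its log2 fold change was -0.02 (95% confidence interval -0.85 to 0.80, edgeR adjusted p = 0.98), and its sign changed with the scaling. At these counts the intervals are wide, reaching a log2 fold change of -0.69 for Axin2 and -0.85 for Apc, so modest changes in these transcripts could not be detected at this depth.

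Upstream of the complex, Lrp6 (chr6:134446476-134566965, minus strand), the co-receptor, had 17 and 23 counts in shControl cells against 28 and 35 in shLmna cells. Scaled to CPM, they stood at 5.27 and 6.16 against 11.1 and 9.54, so both shLmna libraries were higher. Lrp6 had a log2 fold change of 0.83 (SE 0.318, 95% confidence interval 0.12 to 1.54), which did not pass (edgeR adjusted p = 0.11). It passed on the batch-corrected values (log2 difference 0.14, limma adjusted p = 0.021). Dvl1 (chr4:155847402-155859303, plus strand), a Dishevelled gene, had 146 and 182 counts in shControl cells against 113 and 140 in shLmna cells. The groups lay side by side at 45.2 and 48.7 CPM against 44.7 and 38.1 CPM, apart by less than 1 CPM. Its log2 fold change was -0.19 (95% confidence interval -0.57 to 0.19, edgeR adjusted p = 0.49).

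**Figure D2:**
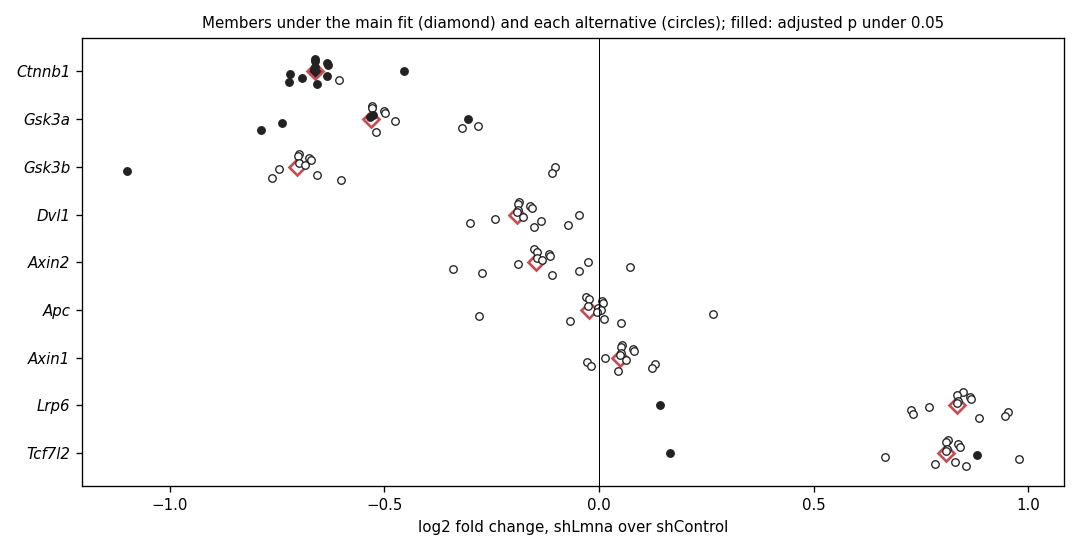
Log2 fold change (shLmna over shControl) of the 9 tested members in the fit reported here (diamond) and under each of 13 alternatives (circles, filled where the adjusted p was under 0.05). Ctnnb1 lay between -0.72 and -0.45 throughout and was open in 1 alternative, while Apc, Axin1 and Axin2 fell on both sides of 0. The -0.45 came from the batch-corrected values, whose scale was narrower (Lmna -1.54 there against -2.61 in the reported fit).

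Counts at the 3′ end can move with base composition, so the GC content of the last 1000 transcript bases was set beside each value. It ran from 36.5% in Tcf7l2 to 55.6% in Gsk3a among the tested members, and its median over all tested genes was 47.0%. Of the 9, 5 lay between 36% and 42%, where 13.0% of 1827 tested genes were lower and 9.36% were higher in shLmna, and 4 lay between 48% and 56%, where 6.01% of 2979 were lower and 3.39% were higher. Ctnnb1 was in the lower band at 39.8%. With a correction for GC content, its log2 fold change was -0.72 (edgeR adjusted p = 0.0021). Gsk3b at 39.2% and Lrp6 at 40.4% lay in the same band, with log2 fold changes of -0.70 and 0.83 that did not pass. The part of base composition in the fall of Ctnnb1 was not tested beyond the GC correction.

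**Figure D3:**
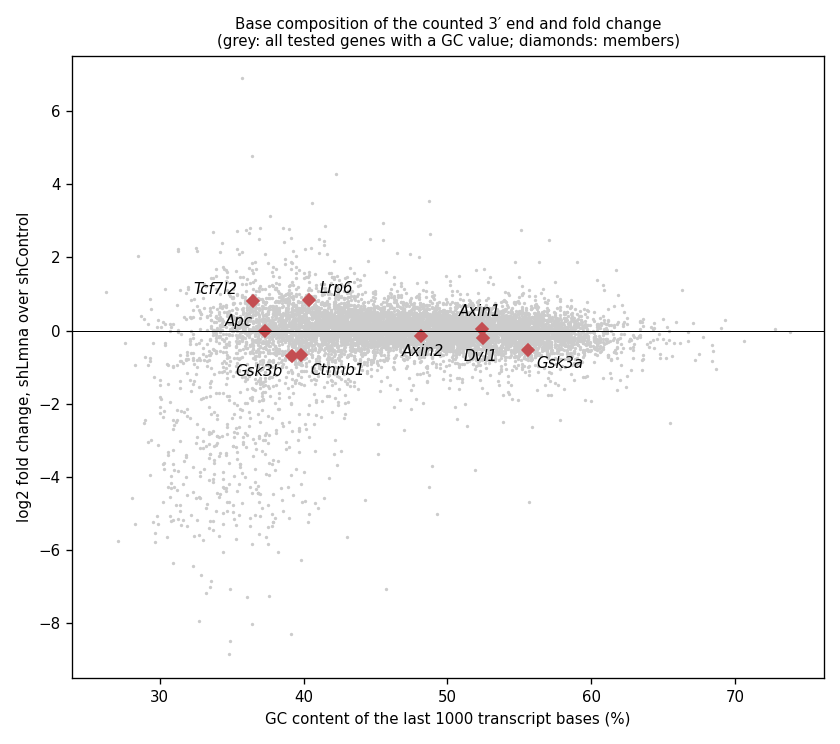
GC content of the last 1000 transcript bases (horizontal, in percent) against log2 fold change, shLmna over shControl (vertical), for all tested genes with a GC value (grey, 8793 genes) and the 9 tested members (diamonds). Between 36% and 42% GC, 13.0% of genes were lower and 9.36% were higher in shLmna. Between 48% and 56%, 6.01% were lower and 3.39% were higher. The members lie between -0.70 and 0.83.

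The wider pathway was described with a list of 138 genes that includes the 10. No count was found for 36 of them, which allows up to 3 counts per library each, and 65 were tested. Of these, 10 passed (15.4%), 5 lower and 5 higher, beside 15.2% of all genes, and the median log2 fold change was -0.03. The groups did not overlap for 40 of the 65 (61.5%, against 60.1% of all genes). Both shares were near the background, and the genes that passed are given by role. At an unadjusted p under 0.05 by edgeR there were 23 of the 65. No share of all genes was set beside that count, so it is not read as a result about the list.

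**Figure D4:**
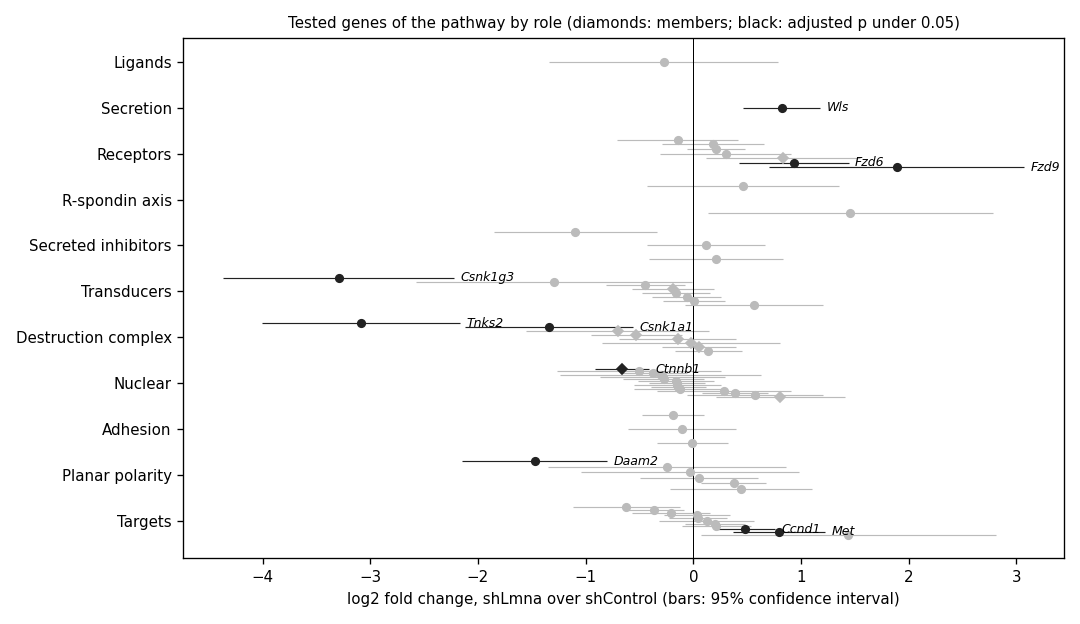
Log2 fold change, shLmna over shControl, with 95% confidence intervals for the 65 tested genes of the list by role, with diamonds for members and black for an adjusted p under 0.05. The 5 genes that fell are Csnk1g3, Tnks2, Daam2, Csnk1a1 and Ctnnb1, and the 5 that rose are Wls, Fzd6, Fzd9, Ccnd1 and Met.

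Few counts came from ligand genes. Of 19 Wnt genes, 11 had no count and 1 was tested, Wnt5b, which had 10 and 24 counts in shControl cells against 8 and 17 in shLmna cells. Wnt6, next by count, had 6, 0, 4 and 5 counts in shControl 1, shControl 2, shLmna 1 and shLmna 2. Wls, the carrier that brings lipid-modified Wnt proteins to the cell surface, rose from 188 and 278 counts to 273 and 463, or by 0.82 on the log2 scale (SE 0.159, edgeR adjusted p = 0.0078). The call was lost without shLmna replicate 2 (log2 fold change 0.70, edgeR adjusted p = 0.060). Porcn, the enzyme that adds the lipid, had 2, 7, 3 and 9 counts in the same order and was not tested.

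Of 16 receptor genes, 7 were tested, and 2 of them passed (28.6%, beside 15.2% of all genes), both higher in shLmna. With only 7 genes tested, this share is not read as a result about receptors. Fzd6 had 43 and 51 counts in shControl cells against 71 and 87 in shLmna cells, and its log2 fold change was 0.93 (SE 0.228, edgeR adjusted p = 0.023). Fzd9 had 3 and 7 counts in shControl cells against 16 and 17 in shLmna cells, and its log2 fold change was 1.89 (SE 0.529, edgeR adjusted p = 0.039). At 0.929 and 1.87 CPM in shControl cells, Fzd9 met the filter on low counts only through its shLmna libraries, where it was high. Fzd6 and Fzd9 both encode Frizzled receptors. Neither passed with DESeq2, where the adjusted p was 0.15 for Fzd6 and 0.27 for Fzd9, and neither passed without shLmna replicate 1 (edgeR adjusted p = 0.12 and 0.18). Fzd9 also failed without shControl replicate 1 and without shLmna replicate 2 (edgeR adjusted p = 0.095 and 0.077). Ryk, a Wnt receptor with an inactive kinase domain, had 380 and 461 counts against 342 and 527 (log2 fold change 0.21, edgeR adjusted p = 0.28), and Fzd7 had 75 and 115 against 79 and 111 (log2 fold change 0.18, edgeR adjusted p = 0.62).

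The R-spondin axis, which sets how much Frizzled stays on the surface, had 9 genes, 2 of them tested and neither passing in the reported fit. Lgr4, an R-spondin receptor, had 2 and 11 counts in shControl cells against 12 and 20 in shLmna cells (log2 fold change 1.46, edgeR adjusted p = 0.13). Lgr4 too met the filter on low counts only with its shLmna libraries. Its value went from 0.80 without shControl replicate 1 to 2.97 without shControl replicate 2, where it passed (edgeR adjusted p = 0.017). It also passed on the batch-corrected values (log2 difference 0.15, limma adjusted p = 0.030). Znrf3, a ligase that removes Frizzled, had 20 and 22 against 29 and 21. Of 15 inhibitors at the cell surface or outside it, 10 had no count, and none of the 3 tested passed. Dkk3 had 46 and 47 counts against 37 and 53, and Kremen1, a receptor for Dickkopf proteins, had 52 and 44 against 48 and 50. The third tested gene, Frzb, a secreted Frizzled-related protein named here after its values were seen, had 40 and 81 counts against 24 and 25 (log2 fold change -1.10, edgeR adjusted p = 0.058), and its groups did not overlap.

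In the destruction complex, 8 of 13 genes were tested and 2 passed (25.0%, beside 15.2% of all genes), both lower in shLmna. With only 8 genes tested, this share is not read as a result about the complex. Csnk1a1, which encodes the kinase CK1α that acts on serine 45 of β-catenin, had 214 and 344 counts in shControl cells against 39 and 164 in shLmna cells. Both shLmna libraries were lower, but they differed widely from each other, at 15.4 and 44.7 CPM. Csnk1a1 fell by 1.34 on the log2 scale (SE 0.350, edgeR adjusted p = 0.029). Without shLmna replicate 1 the difference was -0.83 (edgeR adjusted p = 0.064), without shLmna replicate 2 it was -2.36 (edgeR adjusted p = 0.00046), and DESeq2 did not pass the gene (adjusted p = 0.31). Tnks2, a tankyrase that marks axin for degradation, had 97 and 159 counts in shControl cells against 4 and 23 in shLmna cells, and fell by 3.09 on the log2 scale (SE 0.411, edgeR adjusted p = 0.00094). Its shLmna libraries also differed widely, at 1.58 and 6.27 CPM. The value was -2.53 without shLmna replicate 1 and -4.49 without shLmna replicate 2. With so few counts in shLmna 1, Tnks2 met the filter on low counts only through its shControl libraries, where it was high. It passed under all 13 alternatives. The 2 genes that fell had 3′ ends of low GC, 37.0% for Csnk1a1 and 35.8% for Tnks2. These lay near or within the band in which 13.0% of genes were lower and 9.36% were higher. The part of base composition in the size of their falls was not tested beyond the GC correction, which gave -1.30 and -2.95. Fbxw11, a ubiquitin ligase subunit that recognizes phosphorylated β-catenin, had 291 and 290 counts against 238 and 333 (log2 fold change 0.14, edgeR adjusted p = 0.54).

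Among the transducers, the Dishevelled proteins and the CK1 kinases that act with them, 1 of 8 tested genes fell and none rose. That was 12.5%, beside 15.2% of all genes. Csnk1g3, a membrane-bound CK1 gamma kinase, had 46 and 54 counts in shControl cells against 1 and 8 in shLmna cells, and fell by 3.29 on the log2 scale (SE 0.478, edgeR adjusted p = 0.0016). The value moved to -2.70 without shLmna replicate 1 and to -5.05 without shLmna replicate 2, passing in both. Of the 31-base words in its counted 3′ end, 37.1% also occur in other genes, so its counts are uncertain. At 0.396 and 2.18 CPM in shLmna cells, Csnk1g3 met the filter on low counts only through its shControl libraries, where it was high. Csnk1d had 816 and 666 counts against 393 and 589 (log2 fold change -0.45, edgeR adjusted p = 0.0998). Its value went from -0.17 without shControl replicate 1 to -0.68 without shControl replicate 2, where it passed (edgeR adjusted p = 0.0011), and it passed with no filter on low counts (edgeR adjusted p = 0.013). Csnk1g2 had 778 and 988 against 687 and 870 (log2 fold change 0.01, edgeR adjusted p = 0.98).

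Of the 15 nuclear genes tested Ctnnb1 was the only one that passed (6.67%, beside 15.2% of all genes). Aes, a short corepressor of the TLE family, had 4921 and 4900 counts in shControl cells against 3226 and 4776 in shLmna cells, which after scaling were 1524 and 1312 CPM against 1276 and 1301 CPM (log2 fold change -0.14, edgeR adjusted p = 0.46). The partners of β-catenin at adherens junctions did not pass either, 0 of 3 tested at an adjusted p under 0.05 and 0 at an unadjusted p under 0.05 by edgeR. Ctnna1, the gene of α-catenin, had 524 and 463 counts against 370 and 507 (log2 fold change -0.01, edgeR adjusted p = 0.98). Ctnnd1, the gene of p120-catenin, had 358 and 455 against 251 and 384 (log2 fold change -0.19, edgeR adjusted p = 0.36).

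In the planar polarity branch, which shares Frizzled and Dishevelled but not β-catenin, 1 of 6 tested genes fell. The share, 16.7%, was near the 15.2% of all genes. Daam2, a formin that binds Dishevelled, had 59 and 111 counts in shControl cells against 20 and 34 in shLmna cells, and fell by 1.47 on the log2 scale (SE 0.30, edgeR adjusted p = 0.0099). Its 3′ end had a GC content of 54.4%, and it passed under all 13 alternatives. Prickle1 had 213 and 267 counts against 220 and 334 (log2 fold change 0.37, edgeR adjusted p = 0.096). It passed on the batch-corrected values (log2 difference 0.17, limma adjusted p = 0.0088). Daam1 had 89 and 60 against 90 and 88 (log2 fold change 0.44, edgeR adjusted p = 0.35). The Daam1 value was 0.087 without shControl replicate 2, 0.14 without shLmna replicate 1, 0.71 without shLmna replicate 2 and 0.87 without shControl replicate 1, where it passed (edgeR adjusted p = 0.036). It also passed on the batch-corrected values (log2 difference 0.12, limma adjusted p = 0.022).

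Textbook targets of β-catenin and TCF/LEF numbered 26 when those with another role, such as Axin2 and Lef1, were counted. Of these, 13 were tested, 2 rose, none fell, and the median log2 fold change was 0.12. The share that passed, 15.4%, was near the 15.2% of all genes, so it is not a result about the targets. Ccnd1, which encodes cyclin D1, rose from 779 and 846 counts to 873 and 1126, or from 241 and 227 CPM to 345 and 307 CPM. In the fit Ccnd1 differed by 0.48 on the log2 scale (SE 0.125, edgeR adjusted p = 0.030). Met, the receptor of hepatocyte growth factor, had 911 and 1673 counts in shControl cells against 1649 and 2261 in shLmna cells, or 282 and 448 CPM against 652 and 616 CPM, and its log2 fold change was 0.80 (SE 0.190, edgeR adjusted p = 0.021). Both calls were lost without shLmna replicate 1 (edgeR adjusted p = 0.20 for Ccnd1 and 0.085 for Met) and without shLmna replicate 2 (edgeR adjusted p = 0.056 and 0.053), and Met did not pass with DESeq2 (adjusted p = 0.11). Id2 had 2399 and 3162 counts against 2028 and 3812 (log2 fold change 0.21, edgeR adjusted p = 0.36). That difference was 0.013 without shLmna replicate 2 and 0.39 without shLmna replicate 1. On the batch-corrected values Id2 passed (log2 difference 0.12, limma adjusted p = 0.0496).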

How the data were processed

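Bulk MARS-seq, which primes at the poly(A) tail and counts transcript 3′ ends, was performed on 4 libraries of transduced B16F10 cells. Per the study's methods, the authors trimmed reads with Cutadapt, aligned them to mm10 with STAR (version 2.4.2a), and counted them with HTSeq over the last 1000 bases of RefSeq genes and a short stretch downstream. UMIs were counted with duplicates already marked. The main input here was the matrix of raw counts that the authors deposited. The matrix itself carries no note on whether its values are UMIs or reads. Another deposited table held signal values, beside the authors' p-values and calls, which were not used. All values in a library were whole multiples of 1 step, as counts divided by 1 size factor would be. The counts behind them were not those of the matrix. In shControl 1 the step was 1.001, and Ctnnb1 stood at 3878 there against 4147 counts in the matrix. The reason for this difference was not tested. In the last table the authors deposited log2 values corrected for batch with ComBat, without naming the batches.

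Groups came from the sample titles. Counts were scaled with TMM, filtered with filterByExpr and tested two-sided with edgeR (4.0.16, R 4.3.3) by quasi-likelihood, with group as the only term and Benjamini-Hochberg adjustment over 9150 genes. A gene passed at an adjusted p under 0.05. Standard errors were derived from the F statistic. Alternatives used limma (3.58.1), DESeq2 (1.42.0), other scalings, no filter, a replicate block, an offset for GC content and each library left out. The limma fit to log2(signal + 1) was chosen after seeing the data, in place of a planned count test on that table, which was not run.

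The members and the list of 138 genes were chosen with earlier results of these data known. Named are Lmna, the 10 members, each list gene that passed, and in each role the 2 genes of highest mean count. Cell type markers were fixed lists. Gene positions and GC content came from GENCODE M21 (GRCm38, which is mm10), and promoters from RefSeq. No source says whether replicates were separate cultures, so p-values measure only the spread between these libraries. Replicates differed beyond counting noise (chi-square per degree of freedom 6.96 over 10085 genes in shControl and 3.91 over 9542 in shLmna). Totals of 2494880 to 3808843 counts make 3 counts, the number that a count of 0 allows, worth 0.803 to 1.19 CPM. Such limits cover counting error only.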

Additional observations from a re-analysis of the deposited data

How the results depend on the processing

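The count over all genes (1392) became 843 with DESeq2 and 3774 with limma on the batch-corrected log2 values (1982 lower, 1792 higher, 52.5% lower against 64.0% in the counts), 2042 with no filter, and ran from 691 to 1878 as single libraries were left out. Of the 10 members, 1 passed in the reported fit, 2 with no filter (Gsk3a added), 2 with the GC offset (Tcf7l2 added), 4 with the batch-corrected values (Gsk3a, Tcf7l2 and Lrp6 added), and 0 to 3 as single libraries were left out. For the 138 listed genes the count went from 10 to 6 with DESeq2 and to 28 with the batch-corrected values (Ryk and Ctnnd1 among them), and from 4 to 13 as libraries were left out. These counts stand beside 1392 of 9150 genes in the reported fit, 3774 of 10417 with the batch-corrected values and 2042 of 13616 with no filter. A pass on the batch-corrected values was thus more common among all genes, and no count here is read as a result about the members or the list. With a library left out, the lone one is assumed to vary like the other group. Replicate numbers did not pair the samples (correlation of same-number deviations 0.0129 over 2 pairs). The replicate block passed 2072 genes in all, 15 listed genes and 2 members, Ctnnb1 and Gsk3a (-0.53, edgeR adjusted p = 0.00090), and Csnk1d (-0.42, 0.013). Signs changed for Apc, at -0.02 in the reported fit and 0.0062 with upper quartile scaling, 0.0082 with library totals, 0.0047 with batch-corrected values and 0.052 with limma on the scaled signal, and for Ctnna1, at 0.022, 0.024, 0.0035 and 0.013 in the same order and 0.0050 with the replicate block. As libraries were left out, log2 fold changes ran from -0.28 to 0.27 for Apc, -0.027 to 0.13 for Axin1, -0.34 to 0.073 for Axin2, -0.19 to 0.20 for Ctnna1, -0.68 to 0.36 for Wnt5b, -0.0040 to 0.40 for Fzd7, -0.077 to 0.92 for Znrf3, -0.027 to 0.45 for Kremen1 and -0.093 to 0.10 for Csnk1g2. The cause of these changes was not tested. Scalings moved the median of all genes by at most 0.03. Depth limits Lef1, Apc, Lrp6, Gsk3b and Tcf7l2, with counts under 60 in every library.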
